A study of Homo sapiens with 6 samples.

Results

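The genes described here are 9 members of the Notch pathway: the ligands JAG1 and JAG2, the receptors NOTCH1, NOTCH2 and NOTCH3, the DNA-binding factor RBPJ, its coactivator MAML2, and the target genes HES1 and HEY1. They were taken by name, as probe sets whose only annotated symbol is one of these, and all 9 were found, with 26 probe sets among the 54675 on each array. The 9 genes stand among 19775 that had a probe set of their own. The cells were CaSki, an established line of human cervical squamous carcinoma that carries integrated papillomavirus DNA. In 3 samples the cells received recombinant TGF-β1 at 2 ng/mL, and in 3 untreated samples they were kept in medium without it. Both groups grew in RPMI1640 with heat-inactivated serum. The serum is itself a source of growth factors, so the untreated state is not free of them. All 6 samples come from 1 cell line, the labels do not say whether the 3 of a group were separate cultures, and the sources used here give no time under TGF-β1. The p-values therefore weigh a difference against the spread among these samples, and that spread may be technical.

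Notch signalling passes between touching cells. A Jagged or Delta ligand on one cell pulls on a Notch receptor on its neighbour, ADAM proteases and then γ-secretase cut the receptor, and the freed intracellular part enters the nucleus, where it joins RBPJ and a Mastermind-like protein and turns on genes such as HES1 and HEY1, which encode transcriptional repressors. In stratified squamous epithelium the pathway is known for driving keratinocytes out of the basal layer into differentiation, and NOTCH1 is often mutated in squamous carcinomas of other sites. JAG1 and HEY1 are known from other epithelial cells as genes that TGF-β can raise.

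Because the receptor's output is read at the promoters of its targets, the promoter of HES1 is shown with those of JAG1 and MAML2, the members that were higher with TGF-β1. RefSeq windows of build GRCh38.p14, from 250 bases before a transcript's start to 50 after it, were at hand for 8 of the 9 members. HEY1 had none, so its promoter was not searched. In HES1 the capitals mark the core letters bound by RBPJ, GTGGGAA, and in JAG1 and MAML2 they mark the core letters bound by SMAD proteins, CAGAC, which read GTCTG where they lie on the other strand.
HES1 promoter (chr3:194135898-194136197, plus strand): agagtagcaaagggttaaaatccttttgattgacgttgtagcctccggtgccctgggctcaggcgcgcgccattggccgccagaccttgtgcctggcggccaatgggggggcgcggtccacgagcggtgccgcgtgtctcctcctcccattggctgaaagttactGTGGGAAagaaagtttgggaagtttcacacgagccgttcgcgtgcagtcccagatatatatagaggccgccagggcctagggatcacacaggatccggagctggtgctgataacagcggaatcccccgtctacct
JAG1 promoter (chr20:10673950-10674249, minus strand): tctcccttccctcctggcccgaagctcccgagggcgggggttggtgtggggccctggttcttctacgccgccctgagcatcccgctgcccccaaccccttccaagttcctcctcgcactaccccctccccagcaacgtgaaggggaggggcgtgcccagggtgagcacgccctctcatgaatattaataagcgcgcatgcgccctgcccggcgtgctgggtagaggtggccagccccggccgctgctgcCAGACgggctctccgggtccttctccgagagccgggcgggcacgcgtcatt
MAML2 promoter (chr11:96343146-96343445, minus strand): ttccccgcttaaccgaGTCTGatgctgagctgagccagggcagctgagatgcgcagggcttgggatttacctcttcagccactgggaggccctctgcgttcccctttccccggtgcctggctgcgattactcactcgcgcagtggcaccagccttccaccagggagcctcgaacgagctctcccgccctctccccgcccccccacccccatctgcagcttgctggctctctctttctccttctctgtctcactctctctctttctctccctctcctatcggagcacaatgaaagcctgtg
Both strands were searched. The HES1 window held the RBPJ core once, from base -85 to -79 relative to the start, and 6.25% of all 35116 windows held it. Of the other members, RBPJ had it in 1 of its 5 windows, and the windows of JAG1, JAG2, NOTCH1, NOTCH2, NOTCH3 and MAML2 did not hold these letters. The SMAD core was in the JAG1 window, from base -1 to 3, in the MAML2 window, from -234 to -230, in that of HES1, from -170 to -166, and in 4 of the 5 RBPJ windows, but it is short and 45.3% of all windows held it. The N box, CACNAG, which HES proteins bind, was in the windows of NOTCH1, NOTCH2, NOTCH3, MAML2 and HES1 and in 1 of RBPJ, against 38.0% of all windows. The AP-1 letters, TGANTCA, were in 1 window of RBPJ and in those of no other member, against 7.71% of all windows. None of these matches overlapped another in the 3 promoters shown. A match of letters describes the sequence and shows neither binding nor a cause.

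The values are log2 expression estimates made by RMA (background correction, equalised distributions and 1 summary per probe set). Each gene is given by its brightest probe set, the one whose mean over the 6 arrays was highest. Levels of different probe sets depend on their probes. Where a level is set against a median, summed over markers or used to pick a gene, it is therefore only a rough guide. The arrays' medians over all probe sets lay between 4.15 and 4.18, and a probe set below them is called dim here. Over all probe sets, r was 0.994 to 0.996 between arrays within a group and 0.992 to 0.993 between groups. The ratio of 3' to 5' signal on the control probe sets for GAPDH and ACTB, which rises as RNA degrades, was 1.15, 0.69 and 0.74 (log2) on TGF-β1 arrays 1, 2 and 3, and 1.19, 0.86 and 0.77 on untreated arrays 1, 2 and 3, so array 1 was highest in both groups. Its mean difference between the groups was -0.08 (p = 0.5 by an exact two-sided permutation test, in which 0.1 is the smallest value). For the label of the cells, 9 genes had been listed as markers, and 6 were analysed here: KRT5, KRT14, SFN, CDH1, EPCAM and CDKN2A. All 6 were above the median of genes, which does not by itself set squamous cells apart from other epithelial cells. Of these 6, KRT14 was called higher and EPCAM lower with TGF-β1. Their summed level ran from 14.22 to 14.39 (log2) in TGF-β1 samples and from 14.24 to 14.39 in untreated samples. Linear values were summed, so SFN, at a mean of 13.60 and a difference of 0.02, weighed most in this sum. The summed level of 6 fibroblast markers was 9.44 to 9.62 in TGF-β1 and 8.10 to 8.31 in untreated samples. Of these 6 only COL1A1 was called (9.37 with TGF-β1 and 7.80 without), while LUM, PDGFRA and COL3A1 were dim in both groups, and DCN and THY1 were not called. The summed levels of 5 endothelial markers (6.87 to 7.08 with TGF-β1 and 6.91 to 6.96 without) overlapped between the groups, with CDH5 called lower and KDR higher, both dim. PECAM1, TEK and VWF, at means of 5.67, 5.09 and 4.57, were not dim and not called, and PECAM1 was above the median of genes. The summed levels of 5 immune markers were 6.70 to 6.97 with TGF-β1 and 6.59 to 6.69 without. Of these, 0 of 5 were called, and PTPRC, CD14 and CD163 were dim in both groups. Of the immune markers CSF1R read 5.78 with TGF-β1 and 5.43 without, with no overlap (limma adjusted p = 0.106). The part of these values in the Notch results was not tested. In a bulk sample fewer cells that express a gene and less RNA of it per cell cannot be told apart.

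With TGF-β1, the ligand gene JAG1 and the coactivator gene MAML2 rose, and the other 7 members did not pass the test. JAG1 was 1.73-fold and MAML2 1.55-fold higher. On their brightest probe sets the receptors, RBPJ and both targets differed by at most 0.17 on the log2 scale, in either direction. Of the 9 members, 2 rose and 0 fell (limma, adjusted p below 0.05 over all 19775 genes), against 4.03% of all genes that rose and 4.47% that fell, 8.50% in all. At an unadjusted p below 0.05, 2 were higher and 1, JAG2, was lower, against 23.2% of all genes in either direction. The TGF-β1 and untreated values did not overlap for 4 of the 9 members, against 29.2% of all genes. The median difference of the 9 was 0.06, and that of all genes was -0.003. With 2 calls among 9 genes that were proposed with earlier results in view, the counts say nothing particular about the pathway. The share of all genes called was 3.88% to 4.72% when any 1 array other than TGF-β1 array 1 was left out and 6.71% without that one, and the same 2 members were called each time. For scale, SMAD7, the inhibitory SMAD and a direct target of TGF-β signalling, was 3.17-fold higher (limma adjusted p = 7.9e-05).

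**Figure D1:**
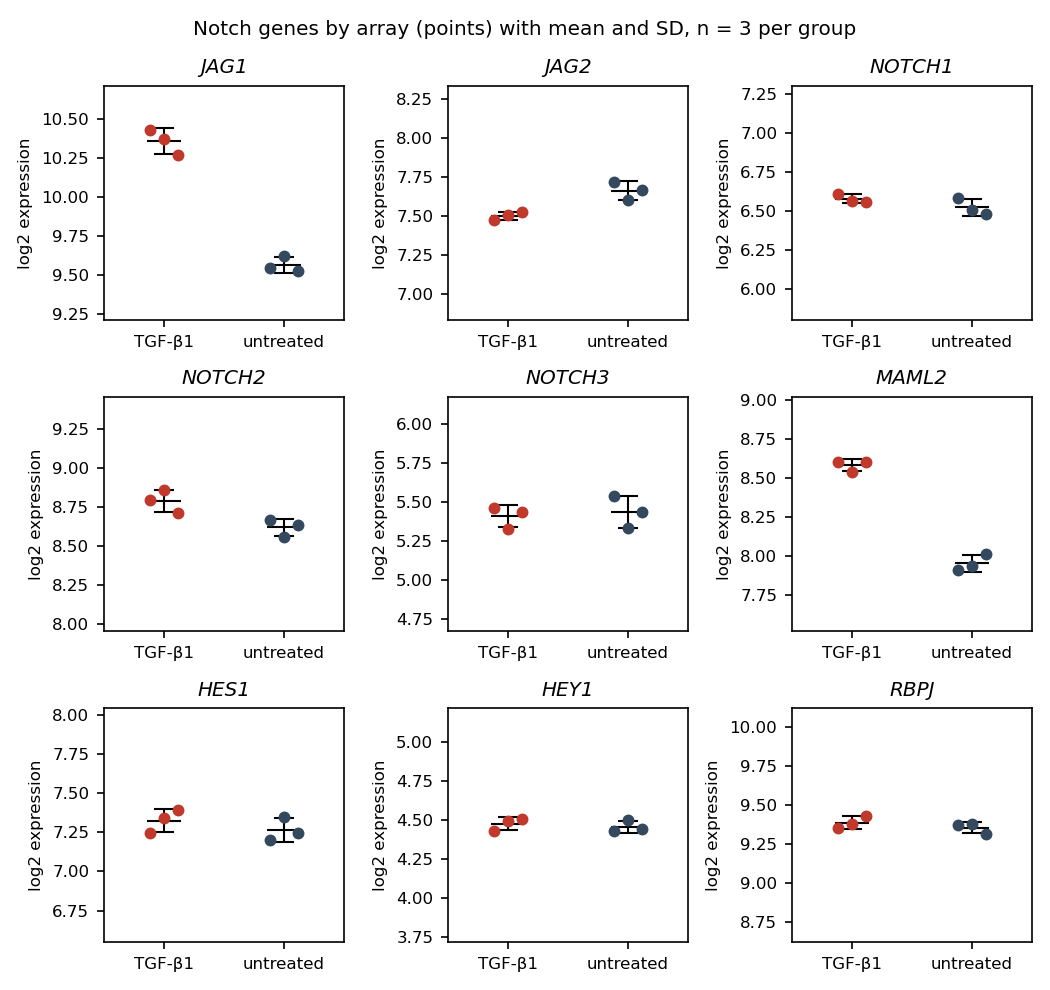
Log2 expression (vertical axis, each panel spanning the same range) of the brightest probe set of each Notch gene on the 3 TGF-β1 arrays (red, left) and the 3 untreated arrays (dark, right), with the mean and SD. The groups of JAG1 and MAML2 stand clearly apart, those of JAG2 and NOTCH2 stand apart by a small gap, and the other 5 overlap.

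Of the ligand genes, JAG1 rose and JAG2 did not pass, and the difference between their responses was not tested. JAG1 encodes Jagged1, a transmembrane ligand that activates Notch receptors on neighbouring cells. Its brightest probe set read 10.43, 10.37 and 10.27 (log2) in the TGF-β1 samples, against 9.54, 9.62 and 9.52 in the untreated samples. Every TGF-β1 sample lay above every untreated one, and the gap between the groups was wider than the range within either. The means were 10.36 ± 0.08 with TGF-β1 and 9.56 ± 0.05 without (SD, n = 3 each), a difference of 0.79 ± 0.07 (SE) (95% interval 0.62 to 0.97, limma adjusted p = 6.89e-04).

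JAG1 had 6 probe sets, and they did not tell a single story. All 6 carry a suffix that marks sequence shared between transcripts or genes. The next brightest, 216268_s_at, read 10.30, 10.35 and 10.37 in the TGF-β1 samples and 9.48, 9.61 and 9.51 in the untreated samples, a difference of 0.81 close to that of the first. A dimmer one, 209098_s_at, differed by 0.70 in the same direction (limma adjusted p = 0.0164 over all 54613 probe sets that are not controls). That call was lost without TGF-β1 array 1 or 2 (adjusted p = 0.0544 and 0.0523) and with the replicate number as a block (adjusted p = 0.0653). In contrast, 231183_s_at was lower with TGF-β1, at 6.62, 6.64 and 6.36, against 6.78, 7.08 and 7.10 in the untreated samples. Its groups did not overlap either, but its difference of -0.44 did not pass (95% interval -0.71 to -0.17, limma adjusted p = 0.0936), and without single arrays it ran from -0.55 to -0.35. The remaining probe sets, 229924_s_at and the dim 209097_s_at, differed by 0.05 and 0.06 with overlapping groups. When the 6 were averaged, JAG1 was still called, at the smaller difference of 0.33 (limma adjusted p = 0.0227). The sources used here do not say where the probe sets lie along the JAG1 transcripts.

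JAG2 encodes Jagged2, the other ligand of this family. It read 7.47, 7.51 and 7.52 in the TGF-β1 samples, against 7.72, 7.60 and 7.67 in the untreated samples. All TGF-β1 samples were below all untreated ones, by a small margin. The difference of -0.16 (95% interval -0.321 to -0.003) did not pass over all genes (unadjusted p = 0.0467, limma adjusted p = 0.208), and the dimmer JAG2 probe set gave -0.17.

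None of the 3 receptor genes passed the test. NOTCH2, a receptor of broad expression, read 8.79, 8.86 and 8.72 in the TGF-β1 samples and 8.67, 8.56 and 8.64 in the untreated samples, with no overlap. Its difference was 0.17 with a 95% interval from -0.001 to 0.337 and did not pass (limma adjusted p = 0.219). The other 3 NOTCH2 probe sets differed by 0.12, -0.09 and 0.27 without passing. NOTCH2 has near-identical partial copies in the human genome, the NOTCH2NL genes, so its signal may hold theirs. One more probe set that names a member together with another symbol was left out.

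NOTCH1, the receptor known for keratinocyte differentiation, read 6.61, 6.57 and 6.56 with TGF-β1 and 6.58, 6.51 and 6.48 without. These values overlapped, and the difference of 0.06 had a 95% interval of -0.10 to 0.21 (limma adjusted p = 0.683). Its dim probe set, with a mean of 3.53, differed by -0.22 with no overlap but did not pass (unadjusted p = 0.0387, limma adjusted p = 0.265). The average of both gave -0.08, so the sign for NOTCH1 depends on the probe set. NOTCH3, a receptor known from vascular smooth muscle as well as epithelia, read 5.46, 5.33 and 5.44 with TGF-β1 and 5.54, 5.33 and 5.43 without. Its groups overlapped almost fully, at a difference of -0.03 and a 95% interval from -0.21 to 0.16. The other NOTCH3 probe set, dim at a mean of 4.06, differed by -0.004 (95% interval -0.289 to 0.281). Expressed as folds, the intervals of the brightest probe sets of NOTCH1, NOTCH2 and NOTCH3 ran from 0.862 to 1.26 together.

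Of the nuclear complex, MAML2 rose and RBPJ did not pass, and the difference between their responses was not tested. MAML2 encodes a Mastermind-like protein, which locks the receptor's intracellular part onto RBPJ and recruits histone acetyltransferases, and it is also known as a fusion partner in mucoepidermoid carcinoma. It read 8.60, 8.54 and 8.61 in the TGF-β1 samples, against 7.91, 7.94 and 8.02 in the untreated samples. The gap between the groups was several times the range within them. The means were 8.58 ± 0.04 with TGF-β1 and 7.96 ± 0.06 without (SD, n = 3 each), a difference of 0.63 ± 0.07 (SE) (95% interval 0.47 to 0.79, limma adjusted p = 0.00146). Its other probe set, 235106_at, read 5.15, 5.25 and 5.17 with TGF-β1 and 4.65, 4.50 and 4.49 without. The difference there was 0.64 (limma adjusted p = 0.0047 over all probe sets), so both MAML2 probe sets passed with nearly the same size, and neither carries a suffix for shared sequence.

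The other Mastermind-like genes did not pass. MAML1 differed by 0.05 (95% interval -0.11 to 0.21) and MAML3 by 0.01 (95% interval -0.21 to 0.23).

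RBPJ, the DNA-binding factor through which the mammalian Notch receptors act, read 9.35, 9.37 and 9.43 in the TGF-β1 samples and 9.37, 9.38 and 9.31 in the untreated samples. The groups overlapped, and the difference of 0.03 had a 95% interval of -0.12 to 0.18 (limma adjusted p = 0.835). Its other probe sets differed by -0.04 and, for the dim one, 0.13. RBPJ has processed copies in the genome, and its brightest probe set carries the suffix for shared sequence, so the signal may include them.

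The canonical targets did not pass in either direction. HES1, whose promoter above holds an RBPJ core, read 7.25, 7.34 and 7.39 in the TGF-β1 samples and 7.20, 7.35 and 7.25 in the untreated samples. The groups overlapped, and the difference was 0.06, with a 95% interval from -0.12 to 0.24, or 0.923 to 1.18 as a fold (limma adjusted p = 0.689). The other HES1 probe sets pointed in opposite directions. On 203395_s_at the TGF-β1 samples read 6.36, 6.45 and 6.41, all below the untreated samples at 6.59, 6.64 and 6.59 (difference -0.20, limma adjusted p = 0.234). On the dim 203393_at they read 2.38, 2.64 and 2.36, all above the untreated samples at 2.17, 2.30 and 2.20 (difference 0.24, limma adjusted p = 0.276). No direction for HES1 follows from these 3 probe sets.

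HEY1, a related repressor, read 4.43, 4.50 and 4.50 in the TGF-β1 samples and 4.43, 4.50 and 4.44 in the untreated samples. These are nearly the same values, at a difference of 0.02 (95% interval -0.14 to 0.17, limma adjusted p = 0.909). They lie just above the array medians, where RMA compresses differences, so a change at a low level may be understated. Its other probe set, 44783_s_at, read 4.34, 4.46 and 4.41 with TGF-β1 and 4.17, 4.26 and 4.27 without. There the groups did not overlap, but the difference of 0.17 did not pass (limma adjusted p = 0.334).

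Over all 26 member probe sets, 5 rose and 0 fell (limma, adjusted over all 54613 probe sets, of which 3.24% were called), 3 of JAG1 and 2 of MAML2. Probe sets of the same gene are not independent, so these calls repeat those of JAG1 and MAML2. At an unadjusted p below 0.05, 7 were higher and 3 lower, against 16.7% of all probe sets in either direction. Of the 26, 18 carry a suffix for shared sequence and 5 lay below the median of all probe sets.

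**Figure D2:**
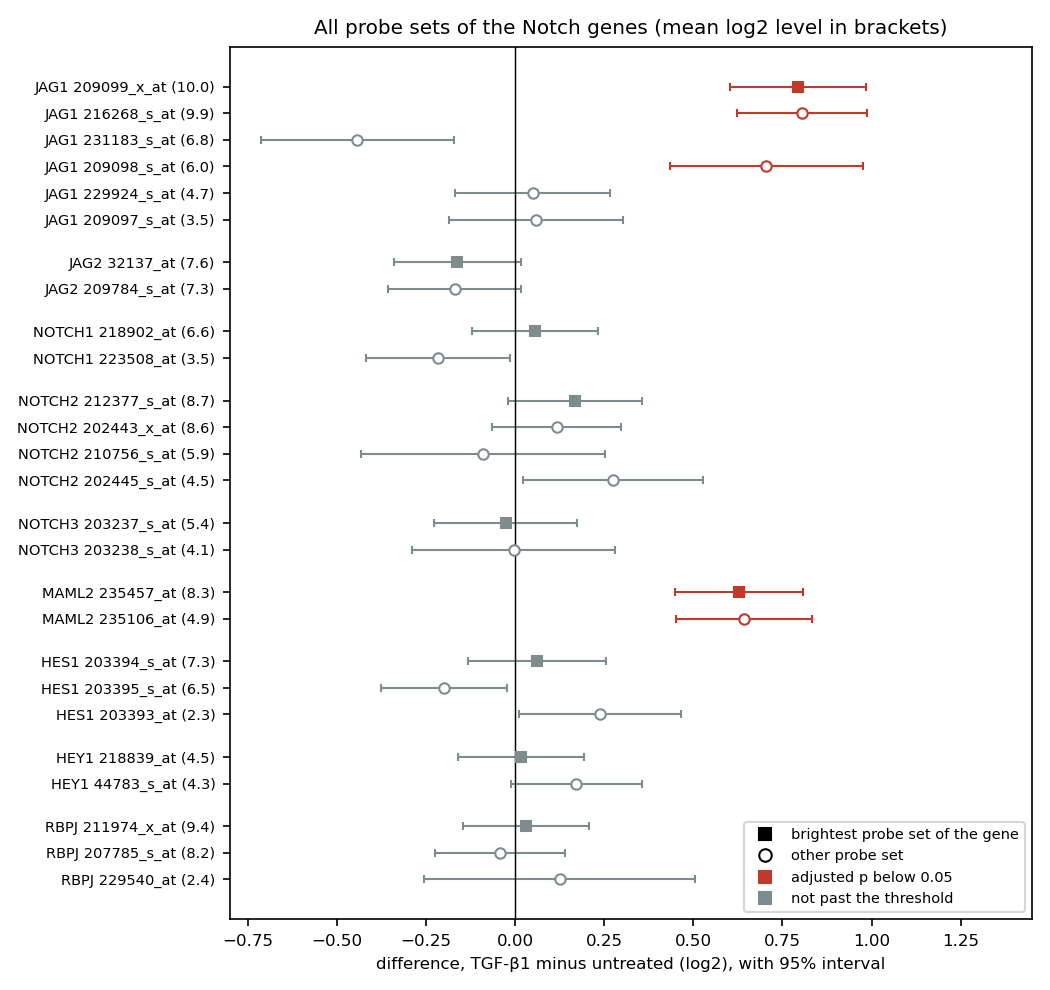
Difference between TGF-β1 and untreated samples (log2, horizontal axis) with its 95% interval for each of the 26 probe sets, named at the left with the mean level over 6 arrays. Filled squares mark the brightest probe set of a gene, and red marks an adjusted p below 0.05. The JAG1 probe sets spread from -0.44 to 0.81, while both MAML2 probe sets lie at 0.63 and 0.64.

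Beyond these 9 genes, 61 others that supply, modify or restrain the pathway were listed by role, and 57 were analysed here. Of the 57, 3 rose and 1 fell, against 4.03% and 4.47% of all genes, and 13 had an unadjusted p below 0.05, against 23.2% of all genes. Their median difference was 0.02. The share called was close to that of all genes, and the 4 called genes are described next.

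Among the 6 other ligands, DNER alone passed. It encodes a transmembrane protein with EGF repeats, known from neurons as an atypical Notch ligand. DNER read 6.61, 6.61 and 6.76 in the TGF-β1 samples, against 5.79, 5.68 and 5.73 in the untreated samples. The groups stood well apart, and the difference of 0.92 ± 0.08 (SE), 1.90-fold, had a limma adjusted p of 3.67e-04. It has only 1 probe set here, as have NEURL1B and DTX3L. DLK2, a relative of the non-canonical ligand DLK1, read lower with TGF-β1 without overlap but did not pass (-0.25, limma adjusted p = 0.0725). The Delta-like ligands DLL1, DLL3 and DLL4 differed by 0.17, 0.02 and -0.05 without passing.

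LFNG, a Fringe glycosyltransferase that extends sugars on the receptor and changes which ligand it answers to, read 6.72, 6.70 and 6.65 in the TGF-β1 samples. In the untreated samples it read 5.72, 6.05 and 6.27, so the TGF-β1 values were close together and all above a wider untreated range. The difference was 0.68 ± 0.13 (SE), 1.60-fold (limma adjusted p = 0.0181). Removing any 1 of the 3 TGF-β1 arrays ended the call (adjusted p = 0.055, 0.0601 and 0.0518), and so did removing untreated array 2 (adjusted p = 0.0563). Its other probe set, at a mean of 4.21, differed by -0.14 without passing, and the average of the 2 gave 0.27 (adjusted p = 0.18). Of the other 4 glycosyltransferases none passed, among them RFNG, another Fringe, at 0.18 (unadjusted p = 0.0474, limma adjusted p = 0.209).

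NEURL1B encodes a ubiquitin ligase of the Neuralized family, which promotes uptake of ligands into the sending cell. It read 6.83, 6.98 and 7.08 in the TGF-β1 samples, against 6.47, 6.55 and 6.59 in the untreated samples. The groups did not overlap, at a difference of 0.43 ± 0.09 (SE), 1.34-fold (limma adjusted p = 0.0212). The call held without TGF-β1 array 1 and was lost without any 1 of the other 5 arrays (adjusted p from 0.061 to 0.0775). MIB1, the other main ligase for ligands, differed by 0.02.

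DTX3L was the 1 called fall, among 9 genes of receptor turnover, of which 3 had an unadjusted p below 0.05 (1 higher and 2 lower). It is listed there as a Deltex family member, but it is best known as the partner of PARP9 in DNA repair and interferon responses. DTX3L read 7.52, 7.60 and 7.63 in the TGF-β1 samples, against 7.85, 7.88 and 7.93 in the untreated samples. The difference was small, -0.30 ± 0.07 (SE), or 1.23-fold lower (limma adjusted p = 0.0359). Removing any 1 of the 6 arrays ended the call (adjusted p from 0.0689 to 0.123), as did a fit with the replicate number as a block (adjusted p = 0.0556). Nor did its only probe set pass in the fit over all probe sets that are not controls (limma adjusted p = 0.0864).

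In the other roles no gene passed. The receptor NOTCH4 differed by 0.14. Of the ectodomain proteases, ADAM10, which makes the first cut, differed by 0.20 (unadjusted p = 0.0476, limma adjusted p = 0.21) and ADAM17 by -0.01. The 5 measured γ-secretase genes lay within a narrow band, from 0.02 to 0.05, with 0 at an unadjusted p below 0.05, and APH1A, a subunit that stabilises the complex, differed by 0.05. Of 7 coactivators, 2 had an unadjusted p below 0.05, KAT2A and KAT2B, at -0.18 and -0.24, and SNW1, a transcription and splicing cofactor, differed by -0.16. Of 10 corepressors, 2 had an unadjusted p below 0.05, 1 higher and 1 lower. Differences of the 10 ran from -0.24 to 0.22, and CTBP2, which helps to silence targets, differed by 0.11. Of 8 further targets of the HES and HEY families and NRARP, 0 passed and 0 had an unadjusted p below 0.05. Their differences ran from -0.19 for NRARP, a feedback inhibitor, to 0.21 for HES2, and HES4 was at 0.14 (95% interval -0.05 to 0.33). HES5 and HEY2, at means of 3.36 and 2.74, were dim.

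**Figure D3:**
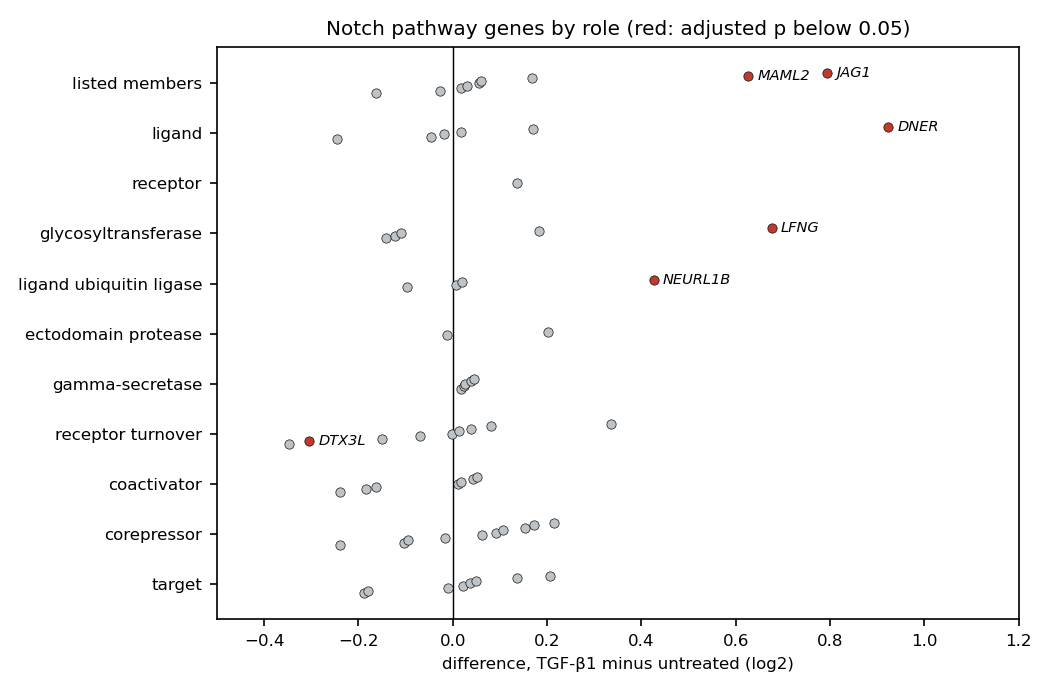
Difference between TGF-β1 and untreated samples (log2, horizontal axis) for the 9 members (top row) and the 57 other measured pathway genes by role. Each point is a gene, red where the adjusted p was below 0.05, and points are spread vertically only to separate them. Called genes lie in the rows of members, ligands, glycosyltransferases, ligand ubiquitin ligases and receptor turnover, and the target row runs from -0.19 to 0.21.

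The called genes differed in how much they rested on single arrays. JAG1 kept its call without any 1 array, at 0.76 to 0.84 (adjusted p up to 0.00612). MAML2 did so at 0.60 to 0.66 (adjusted p up to 0.0107) and DNER at 0.87 to 0.95 (adjusted p up to 0.00365). LFNG, NEURL1B and DTX3L did not, as given with each gene.

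**Figure D4:**
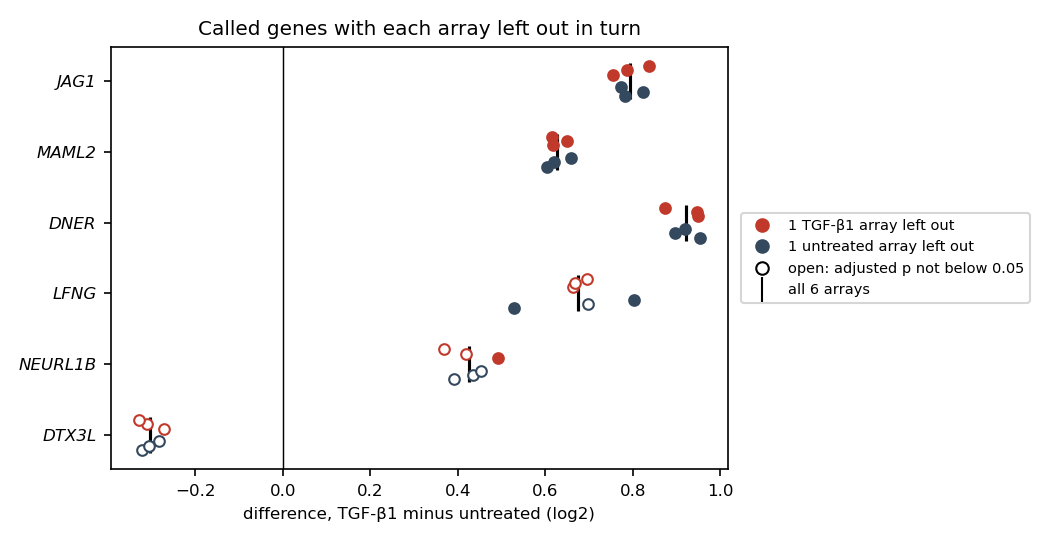
Difference between TGF-β1 and untreated samples (log2, horizontal axis) for the 6 called pathway genes with each array left out in turn. Red points leave out a TGF-β1 array and dark points an untreated one, open points have an adjusted p not below 0.05, and black bars show the value over all 6 arrays. All points of JAG1, MAML2 and DNER are filled, and all of DTX3L are open.

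JAG1 had the smallest adjusted p of the 9 members, and the genes with the most similar profile were sought among 9886 others with a mean above the median of genes. The measure was the Euclidean distance over the 6 arrays between log2 values centred on each gene's mean. The nearest was WNT5A, a secreted Wnt ligand, at a distance of 0.085 (r = 0.998). It read 9.27, 9.23 and 9.18 in the TGF-β1 samples and 8.34, 8.46 and 8.36 in the untreated samples. As on the brightest JAG1 probe set, from which the distances were taken, TGF-β1 array 1 was the highest of its group. Untreated array 2 was the highest of its own on both. The JAG1 probe set 216268_s_at ordered the TGF-β1 arrays otherwise, with array 1 lowest at 10.30 and array 3 highest at 10.37. PALLD, an actin-bundling protein, followed at 0.097, then TNC, the matrix protein tenascin C, at 0.114, RALA, a small GTPase, at 0.134 and FERMT1, an integrin activator, at 0.141. Their differences lay between 0.76 and 0.84. The 6 points fall into 2 groups that share the treatment, so these distances describe profiles and test nothing.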

How the data were processed

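Per the submitters' processing notes, the authors used Affymetrix Expression Console and RMA, whose versions and options were not stated. They deposited 1 value per probe set and array on a log2 scale, as judged from the range of 1.57 to 14.54. Scanner files were not used, so there is no detection call. Arrays have no read depth, and their number limits the precision.

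Names came from the platform annotation, in which 41091 of 54675 probe sets carry 1 symbol. Updating them through RefSeq (GRCh38.p14) changed 0. The 19775 genes were compared with limma 3.58.1 (R 4.3.3, lmFit and eBayes without covariates), with Benjamini-Hochberg adjustment over all of them, and the 54613 probe sets that are not controls in a fit of their own. The members and lists were chosen with earlier results of these data known. Named are all members, called pathway genes, the brightest gene of each role without a call, and the 5 genes nearest to the member with the smallest adjusted p. MAML1, MAML3, DLK2, DLL1, DLL3, DLL4, RFNG, MIB1, ADAM17, KAT2A, KAT2B, NRARP, HES2, HES5, HEY2, SMAD7 and, among the markers, CSF1R were chosen after values were seen. Some listed genes are not reported here. In simulated data made from these 19775 genes, the fit recovered 64% of 100 genes changed by a fold of 1.5 and 89% of 100 changed by a fold of 2, with 4.97% of its calls false. The simulation changed 200 genes in all, whereas 1680 were called in the data, so its rates need not hold there. Alternatives were other normalisations, filters, choices of probe set, variance models, weights for arrays, the replicate number as a block, a 3' to 5' covariate, limma's treat against a fold of 1.2, and the removal of arrays.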

Additional observations from a re-analysis of the deposited data

How the results depend on the processing

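Under all alternatives run, JAG1 and MAML2 were called higher and 0 members were called lower. JAG1 ran from 0.33, with a gene's probe sets averaged, to 0.84, and MAML2 from 0.59 to 0.66. NOTCH1 turned to -0.081 with its probe sets averaged, and NOTCH3, from -0.077 to 0.023 without single arrays, turned to 0.013 without TGF-β1 array 2 and to 0.023 without untreated array 1. The cause was not tested. Over all genes, 796 rose and 884 fell. Falls were 1483 among genes above the median level, where fewer genes were tested, and 1527 with a trended robust variance. With treat there were 206 rises and 121 falls, and without both arrays numbered 1, where fewer samples enter, 356 and 271. Without single arrays, rises ran from 404 to 692 and falls from 318 to 634. Of the 57 other pathway genes, 3 rose and 1 fell. This became 1 and 0 with treat or without both arrays numbered 1, and 1 to 2 and 0 without single arrays. Falls were 2 with a filter at the lower quartile or at the median level and with a trended robust variance. LFNG, NEURL1B and DTX3L lost their calls with treat (adjusted p = 0.231, 0.953 and 1). They also lost them (adjusted p = 0.0708, 0.0568 and 0.119) when both number 1 arrays were removed. Of the 26 member probe sets, 4 to 5 rose and 0 fell without single arrays. The 3' over 5' difference of -0.08 ran from -0.227 to 0.043, turning positive without TGF-β1 array 2 (0.005) or untreated array 1 (0.043).

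With the replicate number as a block, 625 genes rose and 655 fell, the 2 members kept their calls, and of the other pathway genes 4 rose and 0 fell. Of the member probe sets 4 rose. Deviations of same-numbered arrays correlated at 0.20, 0.06 and 0.09, of which 2 lay under the minimum of 0.1, while for 5 of 6 arrays the best correlation was that with the same number. This is a hint from the data and not from the design.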
